A study of Mus musculus with 8 samples.

Results

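Striatal projection neurons are specified and maintained by a small group of transcription factors, and the 10 genes described here (Bcl11b, Bcl11a, Foxp1, Foxp2, Ebf1, Ikzf1, Sp9, Rarb, Rxrg and Zfp521) encode members of that group. They were followed through every array probe that the scanner files or the authors' deposited table name for them, which gave 27 of the 55681 non-control probes and 10 of the 22892 genes named on the array. The striatum was compared between R6/2 males and wild-type (WT) males, all 4 weeks old, with 4 arrays for each genotype. In R6/2 mice exon 1 of human huntingtin, with a long CAG repeat, is expressed from the human huntingtin promoter, and the line serves as a model of Huntington's disease. The WT mice are the controls without it. The repeat length, the strain background and whether each array held RNA of a separate animal are not given in the sources used here, so the p-values rest on a spread between samples that could be technical in part.

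Projection neurons make up most neurons of the striatum and send its output along a direct pathway, whose cells carry the dopamine receptor Drd1, and an indirect pathway, whose cells carry Drd2. Bcl11b and Foxp1 are active in both kinds of cell, Ebf1 acts in direct-pathway cells, and Sp9 and Ikzf1 take part in forming indirect-pathway cells. Rarb and Rxrg encode nuclear receptors that pair on DNA and switch on target genes when retinoic acid, made from vitamin A, binds the pair.

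A promoter and 3 probes are printed here. The Rarb promoter is shown because the classic retinoic acid response element, a direct repeat of a short motif, was described in this gene; the capitals mark the letters that match GGTTCA and AGTTCA with 5 bases of any kind between them. It is the stretch of 250 bases upstream of the start in the RefSeq annotation of GRCm38.p6, chr14:16575477-16575726 on the minus strand, and the match lies 53 to 37 bases upstream of the start. The 3 other entries are array probes, 60 bases long, placed on build mm9 by the scanner files. The Rarb probe A_55_P2084807 (chr14:17264648-17264707, minus strand) and the Foxp1 probe A_55_P2088825 (chr6:98880084-98880143, minus strand) had R6/2 signals that did not overlap the WT signals, as did the Rxrg probe A_55_P2044359, of which the last 30 bases are given (chr1:169569526-169569555, plus strand). Capitals mark a stop codon at the end of the Foxp1 probe and the letters of the polyadenylation hexamer AATAAA in the Rxrg probe. Whether transcripts end after these letters was not tested, and the other Rxrg probe, A_51_P513311, lies downstream of them (chr1:169569624-169569683).
Rarb promoter: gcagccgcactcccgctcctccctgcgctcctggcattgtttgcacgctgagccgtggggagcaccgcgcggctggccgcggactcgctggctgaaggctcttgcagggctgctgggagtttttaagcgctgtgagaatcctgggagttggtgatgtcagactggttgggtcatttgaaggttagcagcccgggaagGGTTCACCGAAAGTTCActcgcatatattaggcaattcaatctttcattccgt
Rarb A_55_P2084807: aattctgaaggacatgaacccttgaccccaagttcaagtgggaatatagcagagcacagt
Foxp1 A_55_P2088825: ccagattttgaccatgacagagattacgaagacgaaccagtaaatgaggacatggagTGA
Rxrg A_55_P2044359, end: tgcttgtAATAAAgacaacctttctacaca
Searched on both strands, the repeat was found in 2 of 32851 promoter windows (0.00609%), each holding 250 bases upstream and 50 bases downstream of a start. RefSeq windows were at hand for 8 of the 10 genes (13 windows), and Rarb was the 1 gene of these whose window held it. The letters searched are those of the Rarb element itself, so the match in Rarb was set by their choice. The windows of Rxrg and of the retinoid enzyme genes Cyp26b1 and Dhrs3 did not hold these letters. Other forms of the response element were not searched. A match is a run of letters and was not measured as a binding site here.

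All 8 arrays lay on 1 slide and were scanned once. By the positions in the file headers, the R6/2 arrays filled slide row 2 and the WT arrays slide row 1, so row and genotype cannot be told apart. Each replicate number stood in the slide column of the same number. The share of probes well above background was 61.5% to 67.7% per array, no member spot was left out as an outlier, and the correlation across probes between arrays of a genotype was 0.983 to 0.992. All 8 defining projection neuron markers were well above background on at least 4 arrays. Their summed scaled signal was 326 to 436 in R6/2 and 605 to 682 in WT. Of the 8, 4 were called lower in R6/2 (Penk, Ppp1r1b, Rgs9 and Adora2a), where 1.49% of all tested genes were. The log2 difference, R6/2 minus WT, was negative in 7 and positive in 1, Tac1 (0.21, adjusted p = 0.328 by limma). Scaled signal here is the processed signal divided by the 75th percentile of its own array. In tissue RNA of this kind, fewer cells of a type and less RNA per cell cannot be told apart.

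Of the 27 probes, 23 were well above background on at least 4 arrays and were tested, and 0 of the 23 passed limma's moderated test at an adjusted p under 0.05, where 1.51% of all tested probes did. An unadjusted p under 0.05 was reached by 7 of the 23, against 17.0% of all tested probes. In 6 of these the R6/2 mean was the lower, a side that held 9.20% of all tested probes, and they belong to Rarb, Rxrg and Foxp1. In 3 probes, 1 each of Rarb, Rxrg and Foxp1, the 4 R6/2 arrays all lay below the 4 WT arrays; this is 13.0% of the tested member probes, and 12.4% of all tested probes had genotypes that did not overlap in either direction. The difference was negative at 13 of the 23 probes and at 48.1% of all tested probes. The median log2 difference, R6/2 minus WT, was -0.07 over the 23 probes and 0.01 over all tested probes. In the authors' deposited table the lowest adjusted p among the 27 probes was 0.155, for the Rarb probe A_55_P2084807, with the authors' fold of 1.38 down in R6/2.

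**Figure D1:**
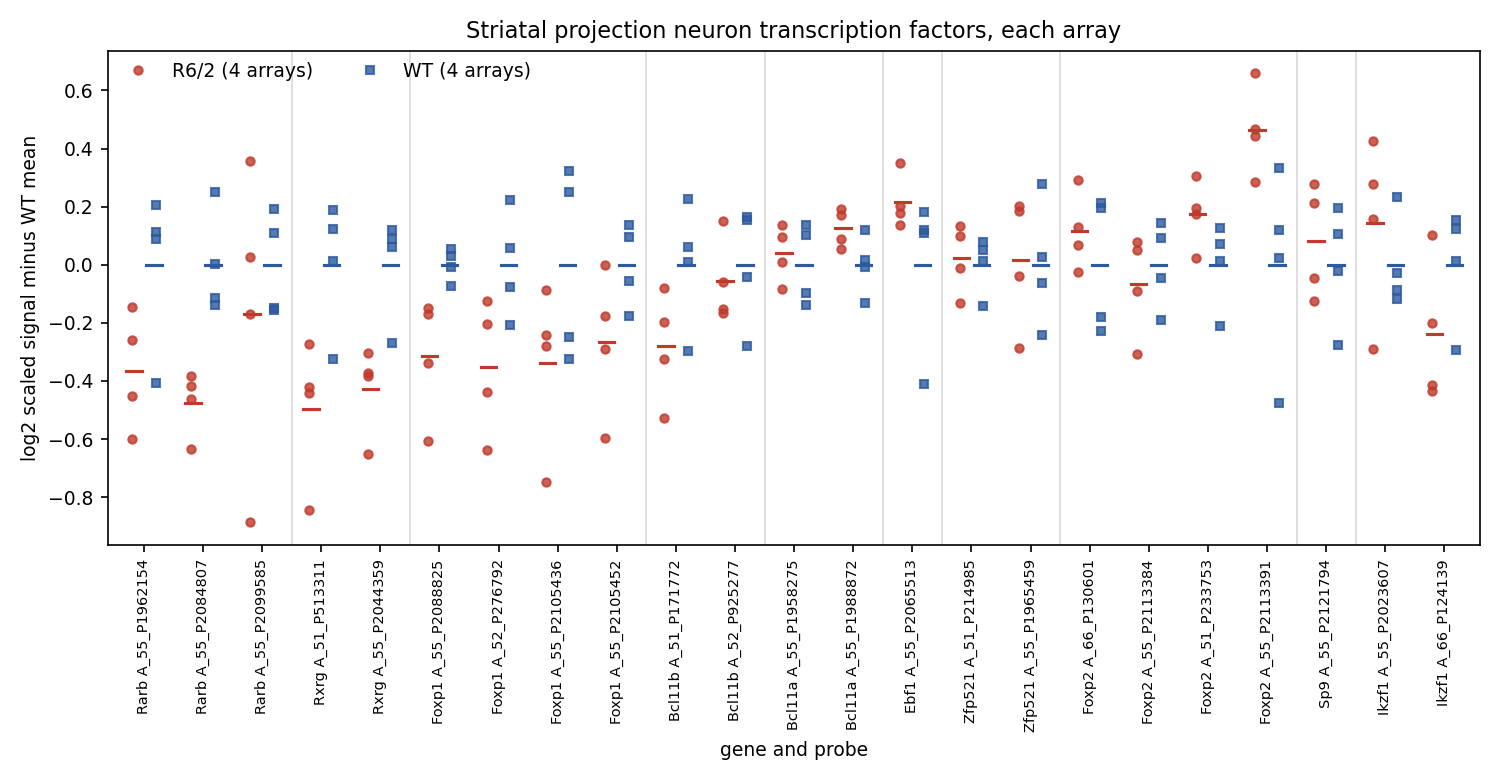
Each tested probe of the 10 genes on each array, as log2 scaled signal minus the WT mean of that probe (y axis), with R6/2 arrays as circles left of the WT arrays as squares and short lines at the group means. The circles of Rarb A_55_P2084807, Rxrg A_55_P2044359 and Foxp1 A_55_P2088825 lie below all squares of the same probe, and elsewhere the genotypes overlap.

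The retinoid receptor genes had the largest negative differences of the group, none of which passed the test. Rarb encodes retinoic acid receptor beta. Its probe A_55_P2084807 had scaled signals of 1.28, 1.45, 1.49 and 1.53 in R6/2, against 1.84, 1.99, 1.81 and 2.37 in WT. The lowest WT array was above the highest R6/2 array. The means were 1.44 ± 0.108 in R6/2 and 2.00 ± 0.256 in WT (SD, n = 4 each), a log2 difference of -0.47 ± 0.11 (SE), or 1.39-fold lower, with a 95% interval of -0.72 to -0.23 and an adjusted p of 0.0724 by limma.

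The brightest Rarb probe, A_55_P1962154 (chr14:17263367-17263426), read 11.9, 11.0, 9.63 and 8.68 in R6/2, against 14.2, 15.2, 9.94 and 14.0 in WT. Here WT replicate 3 fell among the R6/2 arrays and the other 3 WT arrays lay above all of them. The log2 difference was -0.36 ± 0.16 (SE, n = 4 each; 95% interval -0.73 to -0.0034; adjusted p = 0.289 by limma). The third Rarb probe, A_55_P2099585, lies 5' of the others, so that the 3 probes span 388 kb of mm9. It was dim, at 0.0893 to 0.211 in R6/2 and 0.148 to 0.189 in WT, with a log2 difference of -0.17 and a 95% interval of -0.73 to 0.39. Its sign turned to 0.07 without R6/2 replicate 4.

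Rxrg encodes retinoid X receptor gamma, the retinoid X receptor enriched in striatum. Its probe A_51_P513311 (chr1:169569624-169569683) read 30.6, 27.7, 27.3 and 20.6 in R6/2, against 40.3, 42.2, 29.5 and 37.4 in WT. R6/2 replicate 4 was the lowest array, and WT replicate 3 lay inside the R6/2 range. The means were 26.5 ± 4.23 in R6/2 and 37.4 ± 5.58 in WT (SD, n = 4 each), a log2 difference of -0.50 ± 0.15 (SE), or 1.41-fold lower, with a 95% interval of -0.85 to -0.14 and an adjusted p of 0.160 by limma.

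The neighbouring Rxrg probe A_55_P2044359, within 188 bases of the first, read 11.9, 11.3, 11.2 and 9.31 in R6/2, against 15.2, 15.9, 12.1 and 15.5 in WT. The genotypes did not overlap, although WT replicate 3 was far below the other WT arrays. The log2 difference was -0.43 ± 0.12 (SE, n = 4 each; 95% interval -0.69 to -0.16; adjusted p = 0.116 by limma). With arrays weighted by their quality, this probe (log2 difference -0.46, adjusted p = 0.0404 by limma) and Rarb A_55_P2084807 (log2 difference -0.54, adjusted p = 0.0368 by limma) passed the threshold; they were the only member probes to pass under any of the 17 alternatives tried.

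**Figure D2:**
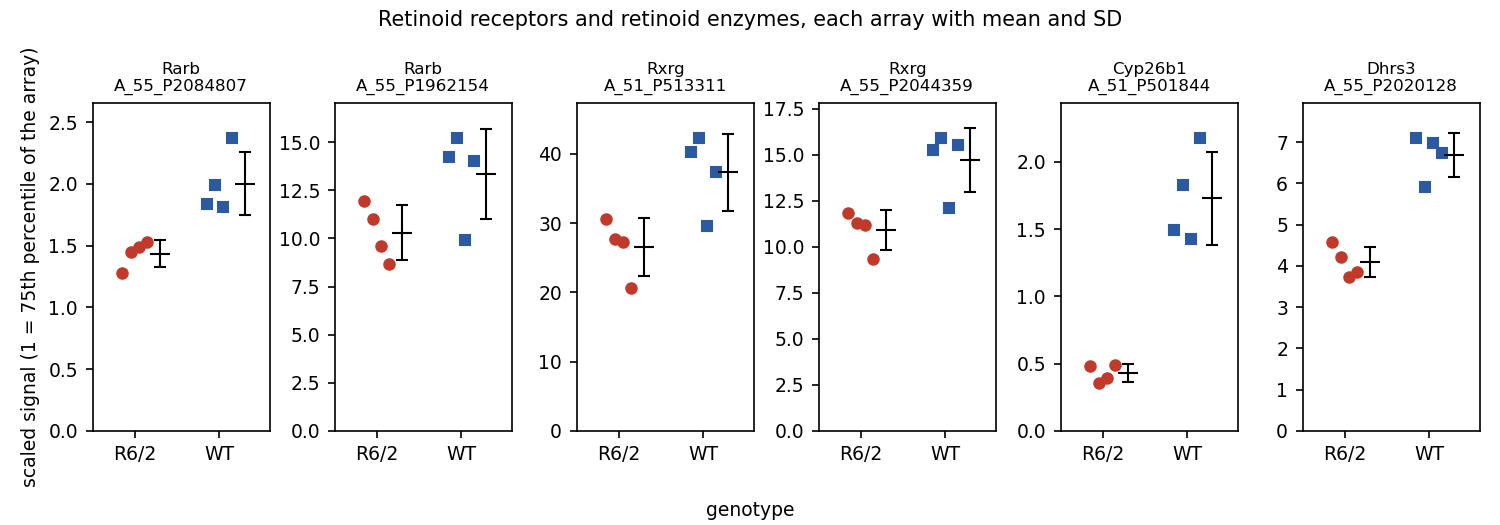
Scaled signal (y axis, starting at 0, with 1 at the 75th percentile of the array) of 2 Rarb probes, 2 Rxrg probes, Cyp26b1 and Dhrs3 on each R6/2 array (circles) and each WT array (squares), with bars at the mean ± SD of 4 arrays. The 4 R6/2 values of Cyp26b1 lie between 0.358 and 0.491 and its WT values between 1.42 and 2.17.

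Among the genes that make, carry or break down the ligand of these receptors, 2 of 17 tested were lower in R6/2 and 0 higher, where 1.49% of all tested genes were called lower and 0.468% higher. A gene is represented here by its brightest tested probe. With the replicate number as a block the count was 1. The count was also 1 when R6/2 replicate 2, 3 or 4 or WT replicate 1 or 4 was left out. Of the 17 genes, 10 had a negative difference (45.6% of all genes) and 4 had genotypes that did not overlap (14.5% of all genes). Their median log2 difference was -0.16, against 0.02 over all genes.

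Cyp26b1, the cytochrome that breaks down retinoic acid in brain, fell most of this list. It read 0.485, 0.358, 0.396 and 0.491 in R6/2, against 1.49, 1.83, 1.42 and 2.17 in WT. Every R6/2 array was below every WT array by a wide margin. The means were 0.432 ± 0.0659 in R6/2 and 1.73 ± 0.345 in WT (SD, n = 4 each), a log2 difference of -1.99 ± 0.16 (SE), or 3.98-fold lower (adjusted p = 0.00610 by limma). It stayed past the threshold in all 11 alternatives run for it, between -2.08 and -1.67.

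Dhrs3, which turns retinaldehyde back to retinol and so limits retinoic acid, read 4.57, 4.21, 3.74 and 3.86 in R6/2, against 7.09, 5.92, 6.99 and 6.73 in WT. The genotypes did not overlap. Its log2 difference was -0.71 ± 0.09 (SE, n = 4 each), or 1.63-fold lower (adjusted p = 0.0189 by limma). The call of Dhrs3 was lost with the replicate block (adjusted p = 0.0538) and without R6/2 replicate 2, 3 or 4 or WT replicate 1 or 4, 6 of its 11 alternatives in all. Cyp26b1 and Dhrs3 each had 1 tested probe. Rbp4, the retinol carrier of blood, was looked at after its values were seen and had a log2 difference of -0.97 ± 0.21 (SE, n = 4 each; adjusted p = 0.0682 by limma, and 0.0371 with normexp background correction). The genes of the enzymes that make retinoic acid gave -0.30 for Aldh1a1 and -0.09 for Aldh1a2, with adjusted p of 0.301 and 0.823 by limma.

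Counted by any tested probe, a count made after the values were seen, 1 of the 17 retinoid genes was also called higher in R6/2, where 0.575% of all tested genes were. This was Ncor1, a corepressor that nuclear receptors bind without ligand. Its probe A_55_P2165969 read 0.809, 0.795, 0.780 and 0.819 in R6/2, against 0.583, 0.628, 0.466 and 0.544 in WT. The genotypes did not overlap, and the log2 difference was 0.54 ± 0.10 (SE, n = 4 each; adjusted p = 0.0445 by limma). The 3 other Ncor1 probes gave 0.24 (the brightest), 0.19 and 0.14, and none of them was called. The call of Ncor1 was lost with the replicate block (adjusted p = 0.0668) and without any 1 array other than WT replicate 3.

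The forkhead factors Foxp1 and Foxp2 gave differences of opposite sign at most of their probes. Foxp1, which acts in projection neurons of both pathways, had 4 tested probes over 233 kb with negative differences at all of them. The probe that ends at the stop codon, A_55_P2088825, read 40.0, 40.6, 35.6 and 29.6 in R6/2, against 45.9, 46.7, 42.7 and 44.7 in WT. All R6/2 arrays were below the WT arrays, and R6/2 replicate 4 was the farthest. The means were 36.4 ± 5.08 in R6/2 and 45.0 ± 1.71 in WT (SD, n = 4 each), a log2 difference of -0.32 ± 0.11 (SE), or 1.24-fold lower (95% interval -0.57 to -0.07; adjusted p = 0.194 by limma).

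The Foxp1 probe A_52_P276792 runs from 98885382 to 98889719 on chromosome 6 and so crosses a splice junction. It read 10.9, 10.3, 8.80 and 7.66 in R6/2, against 12.4, 13.9, 10.3 and 11.3 in WT, with overlap between R6/2 replicates 1 and 2 and WT replicate 3. The log2 difference was -0.35 ± 0.14 (SE, n = 4 each; 95% interval -0.67 to -0.03; adjusted p = 0.251 by limma). The remaining Foxp1 probes had log2 differences of -0.34 (A_55_P2105436; 95% interval -0.79 to 0.11) and -0.27 (A_55_P2105452; 95% interval -0.58 to 0.04). The dimmest, A_55_P2105446, was well above background on 0 arrays and was not tested.

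Foxp2, a factor more abundant in direct-pathway cells, had 4 tested probes, 3 with positive differences. Its probe A_55_P2113391 (chr6:15355616-15355675) was the 1 member probe with an unadjusted p under 0.05 on the higher side. It was dim, at 0.128, 0.110, 0.0985 and 0.112 in R6/2, against 0.0583, 0.0880, 0.0822 and 0.102 in WT. Only R6/2 replicate 3 and WT replicate 4 overlapped. The log2 difference was 0.46 ± 0.17 (SE, n = 4 each; 95% interval 0.07 to 0.85; adjusted p = 0.220 by limma), and it was 0.18 with normexp background correction.

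The brighter Foxp2 probes did not carry a difference of that size. A_66_P130601 gave a log2 difference of 0.12 (95% interval -0.18 to 0.41), A_51_P233753 gave 0.17 (95% interval -0.05 to 0.40), and A_55_P2113384 gave -0.07 (95% interval -0.33 to 0.20). The last turned to 0.01 without R6/2 replicate 4. A_55_P2113399 was well above background on 3 arrays, 2 of R6/2 and 1 of WT, and was not tested.

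Bcl11b, also called Ctip2, is the zinc finger factor without which projection neurons do not mature. Its brighter probe, A_51_P171772 (chr12:109153847-109153906), read 11.4, 10.5, 9.61 and 8.35 in R6/2, against 12.5, 14.1, 9.79 and 12.1 in WT. WT replicate 3 lay within the R6/2 range and the other WT arrays above it. The means were 9.96 ± 1.29 in R6/2 and 12.1 ± 1.77 in WT (SD, n = 4 each), a log2 difference of -0.28 ± 0.14 (SE; 95% interval -0.60 to 0.03; adjusted p = 0.344 by limma).

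The second Bcl11b probe, A_52_P925277, lies within 4.97 kb of the first and read 7.99, 6.91, 6.43 and 6.48 in R6/2, against 7.00, 8.08, 5.94 and 8.02 in WT. The genotypes were interleaved, and the log2 difference was -0.06 with a 95% interval of -0.34 to 0.22. Bcl11a, the paralogue of Bcl11b, had positive differences at both tested probes. A_55_P1988872 read 3.0, 2.95, 2.73 and 2.79 in R6/2, against 2.40, 2.65, 2.61 and 2.86 in WT, a log2 difference of 0.13 (95% interval -0.05 to 0.30). A_55_P1958275 gave 0.04 (95% interval -0.17 to 0.25), and -0.01 without WT replicate 1. The third Bcl11a probe, A_55_P1958270, was well above background on 0 arrays and was not tested.

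Ebf1 is required for direct-pathway neurons to differentiate, and Zfp521 encodes a zinc finger protein that binds Ebf1 and restrains it. The single Ebf1 probe, A_55_P2065513, read 1.06, 0.958, 0.943 and 0.916 in R6/2, against 0.945, 0.904, 0.627 and 0.898 in WT. WT replicate 3 stood far below all other arrays, WT replicates 2 and 4 lay just below every R6/2 array, and WT replicate 1 fell among them. The log2 difference was 0.22 ± 0.14 (SE, n = 4 each; 95% interval -0.10 to 0.53; adjusted p = 0.466 by limma), and 0.08 without WT replicate 3 (adjusted p = 0.626).

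The 2 Zfp521 probes had mean differences near 0. The brighter, A_51_P214985, read 1.27, 1.15, 1.24 and 1.06 in R6/2, against 1.20, 1.22, 1.05 and 1.17 in WT, a log2 difference of 0.02 with a 95% interval of -0.18 to 0.22. The dimmer A_55_P1965459 gave 0.02 with a 95% interval of -0.32 to 0.35. The sign of both differences turned when single arrays were left out.

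Sp9 and Ikzf1, the factors tied to the indirect pathway, were dim on these arrays. Sp9, a zinc finger protein of the Sp family, read 0.338, 0.324, 0.271 and 0.256 in R6/2, against 0.319, 0.300, 0.231 and 0.275 in WT. The genotypes overlapped throughout, with a log2 difference of 0.08 ± 0.13 (SE, n = 4 each; 95% interval -0.23 to 0.39) that was -0.01 without WT replicate 3. Ikzf1 encodes Ikaros, and its 2 tested probes had opposite signs. A_55_P2023607 gave a log2 difference of 0.14 (95% interval -0.22 to 0.51) and A_66_P124139 gave -0.24 (95% interval -0.58 to 0.11). The third Ikzf1 probe, A_55_P2023612, was well above background on 1 R6/2 array and was not tested. The markers of the pathways' own receptors gave log2 differences of -0.70 for Drd1 and -0.72 for Drd2, with adjusted p of 0.0573 and 0.0615 by limma.

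**Figure D3:**
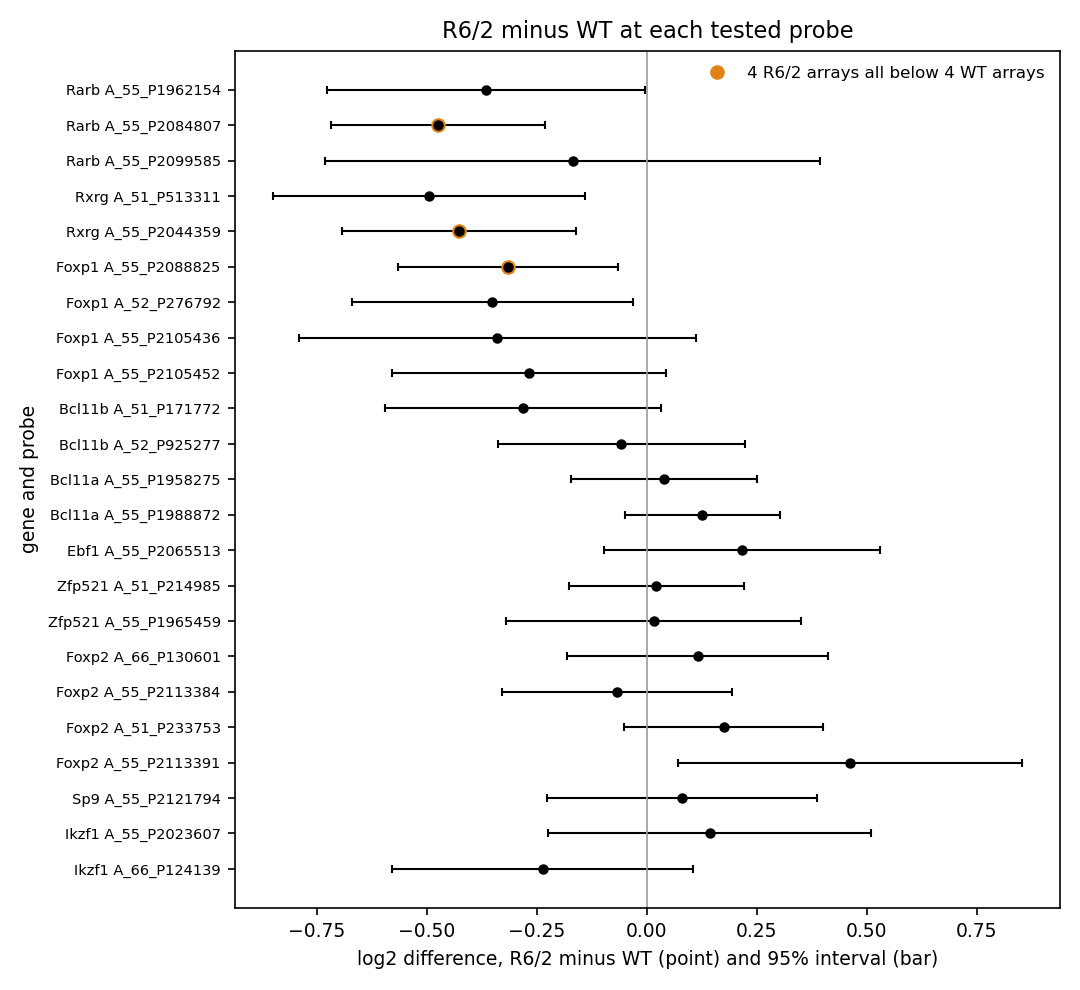
Log2 difference, R6/2 minus WT (x axis), at each of the 23 tested probes, with bars for the 95% interval of limma. The orange points mark the 3 probes whose R6/2 arrays all lie below the WT arrays, and the intervals of 6 probes of Rarb, Rxrg and Foxp1 lie wholly below 0.

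Where a gene had several tested probes, they could be set against each other, since each array gives a ratio between them. Of 8 such genes, 4 had negative differences at every probe (Rarb, Rxrg, Foxp1 and Bcl11b), 2 had positive ones at every probe (Bcl11a and Zfp521), and 2 were mixed (Foxp2 and Ikzf1). In 20 pairs of probes of the same gene, the ratio was compared between R6/2 and WT by a two-sided exact permutation test over the 70 splits of 8 arrays. The smallest p the test can give is 0.0286, or 0.571 for a single pair adjusted over 20, so the adjusted test could not single out a pair. Unadjusted, 0 of the 20 had a p under 0.05. The Bcl11b pair gave -0.22 for A_51_P171772 minus A_52_P925277 (exact p = 0.0571). The Foxp2 pair A_66_P130601 minus A_55_P2113391 gave -0.35 (exact p = 0.0571).

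The genes most like Rarb, the member of smallest p, were found by the root mean square distance between log2 values over the 8 arrays, with each gene set to a WT mean of 0. Among 16869 named genes outside the group, Pde7b was nearest to the brightest Rarb probe at 0.0578, followed by Marchf4 at 0.0650 and Myt1l at 0.0656. Pde7b encodes a cAMP phosphodiesterase, Marchf4 a ubiquitin ligase and Myt1l a neuronal zinc finger factor. Their own log2 differences were -0.42, -0.34 and -0.36, and none was called. That these lie near the -0.36 of the brightest Rarb probe follows from how the genes were chosen. The brightest Rarb probe, A_55_P1962154, is not the Rarb probe of smallest p, A_55_P2084807.

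Of 19 listed relatives of the members by protein family, 17 were tested and 0 were called. Of all tested genes, 1.49% were called lower and 0.468% higher. The 17 had 12 negative and 5 positive differences, against 45.6% negative over all tested genes, and a median of -0.12 on the log2 scale. The smallest p belonged to Foxo1, a forkhead factor downstream of insulin signalling. It read 8.02, 7.73, 7.22 and 6.04 in R6/2, against 11.1, 11.6, 8.61 and 10.1 in WT, without overlap. The log2 difference was -0.51 ± 0.13 (SE, n = 4 each; adjusted p = 0.0894 by limma), and the second Foxo1 probe gave -0.45 (adjusted p = 0.211). With normexp background correction Foxo1 passed the threshold (adjusted p = 0.0442).

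Rara, the receptor alpha beside Rarb, read 1.68, 1.72, 1.48 and 1.52 in R6/2, against 2.00, 1.88, 2.06 and 1.72 in WT. The R6/2 and WT arrays met at 1.72 without crossing. Its log2 difference was -0.26 ± 0.09 (SE, n = 4 each; adjusted p = 0.186 by limma), and the second Rara probe gave -0.20. The remaining receptors of this kind gave -0.16 for Rarg, -0.12 for Rxra and -0.12 for Rxrb, with adjusted p of 0.385, 0.712 and 0.518 by limma. Foxp4, the relative of Foxp1 and Foxp2, had positive differences at its 3 probes, 0.36, 0.23 and 0.19 (adjusted p of 0.146, 0.154 and 0.212 by limma), the last its brightest.

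Of 31 other regulators of the striatal primordium or of adult projection neurons, 1 was lower in R6/2 and 0 were higher by the brightest probe. Of all tested genes, 1.49% were called lower and 0.468% higher. Differences were negative in 17 of the 31 and positive in 14, against 45.6% negative over all tested genes. Their median was -0.03 on the log2 scale. The gene called was Onecut2, a homeodomain factor. Onecut2 read 3.65, 3.39, 3.70 and 3.15 in R6/2, against 4.70, 4.76, 4.52 and 4.56 in WT, so that the genotypes were well apart. Its log2 difference was -0.42 ± 0.07 (SE, n = 4 each; adjusted p = 0.0416 by limma). The call of Onecut2 was lost with the replicate block (adjusted p = 0.0676) and when any 1 of the 8 arrays was left out, so that the count was then 0.

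Isl1, a LIM homeodomain factor that directs early direct-pathway and cholinergic neurons, was singled out after its values were seen. It read 0.959, 0.872, 0.929 and 0.819 in R6/2, against 0.662, 0.716, 0.569 and 0.654 in WT. All R6/2 arrays were above the WT arrays, with a log2 difference of 0.46 ± 0.09 (SE, n = 4 each; adjusted p = 0.0555 by limma). With normexp background correction Isl1 passed the threshold (adjusted p = 0.0251).

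Counted by any tested probe, 1 of the 31 was higher in R6/2, where 0.575% of all tested genes were. This was Gsx2, a homeodomain factor of striatal progenitors. Its dim probe A_51_P520468 was well above background on 4 R6/2 arrays and 0 WT arrays. The probe entered the test only through the R6/2 arrays, where it was high, so its call is no support for a difference. It read 0.0351, 0.0574, 0.0397 and 0.0315 in R6/2, against 0.0215, 0.0112, 0.0144 and 0.0171 in WT, without overlap. Against the lowest signal of any detected probe on each WT array, or its own value where higher, its R6/2 mean was 1.55-fold higher. That floor is not the detection limit of this probe. The log2 means were -4.65 in R6/2 and -6.00 in WT (adjusted p = 0.0431 by limma). The second Gsx2 probe, the brightest, gave a log2 difference of 0.90 (adjusted p = 0.109). The call of Gsx2 was lost with the replicate block (adjusted p = 0.10), with normexp background correction (adjusted p = 0.111), with quantile normalization (adjusted p = 0.0840) and without any 1 of the 8 arrays.

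Many of the gene products by which projection neurons are recognised were lower. Of 34 such effector genes (receptors, neuropeptides, channels and signalling enzymes), 17 were lower in R6/2 and 0 higher, where 1.49% and 0.468% of all tested genes were. Negative differences were found in 31 (45.6% of all tested genes), and genotypes did not overlap in 25 (14.5% of all tested genes). The median log2 difference was -0.62. This list holds genes already seen to be called in these data, and so its count is no independent evidence. With the replicate block 8 were called. The count was 12 without R6/2 replicate 1, 3 without R6/2 replicate 2, 4 without R6/2 replicate 3 and 8 without R6/2 replicate 4. It was 5 without WT replicate 1, 4 without WT replicate 2, 14 without WT replicate 3 and 4 without WT replicate 4, the last with 1 of the 4 higher.

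The 4 effectors of smallest p were Penk, the enkephalin precursor of indirect-pathway cells (log2 difference -1.11), Arpp21, a cAMP-regulated phosphoprotein (-0.90), Kcnip2, a subunit of A-type potassium channels (-0.61), and Scn4b, a sodium channel subunit (-1.23). Their adjusted p by limma were 0.0102, 0.0104, 0.0127 and 0.0137. The other Arpp21 probes gave -0.51 and -0.29 and were not called (adjusted p of 0.182 and 0.158 by limma). Kcnip2 lost its call without R6/2 replicate 2 (adjusted p = 0.0523) or WT replicate 4 (adjusted p = 0.0513). The 10 members, each by its brightest probe, had a median of 0.03, and the largest negative difference among them was that of Rxrg at -0.50. The difference between the lists was not tested.

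**Figure D4:**
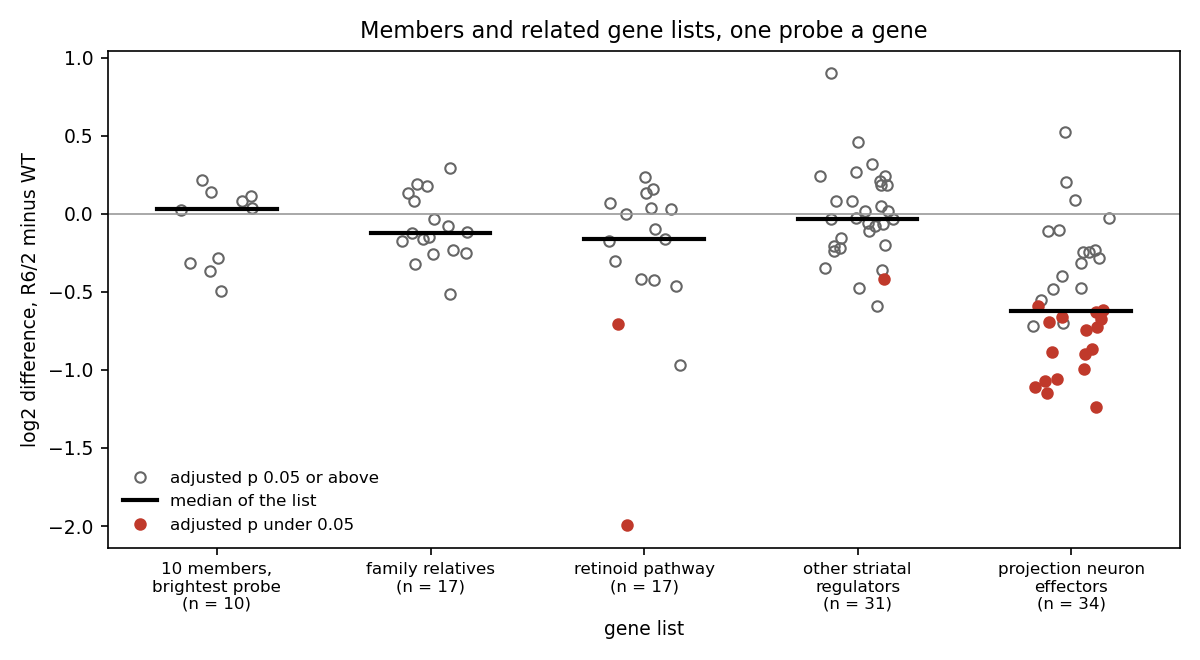
Log2 difference, R6/2 minus WT (y axis), of each gene by its brightest tested probe, for the 10 members, 17 relatives by family, 17 retinoid genes, 31 other striatal regulators and 34 projection neuron effectors (x axis, with sideways scatter for legibility). Filled points have an adjusted p under 0.05 and thick lines are list medians, at 0.03, -0.12, -0.16, -0.03 and -0.62.

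Marker lists of the cells that the dissected tissue holds were read beside these values. Of all tested genes, 45.6% had negative differences, 1.49% were called lower and 0.468% higher. Pan-neuronal markers gave 0 called of 12, with summed scaled signals of 420 to 465 in R6/2 and 458 to 504 in WT. Interneuron markers were negative in 9 of 9, with 66.5 to 73.9 in R6/2 and 88.6 to 105 in WT, and Th was called lower (log2 difference -0.64, adjusted p = 0.0259 by limma). Cortical glutamatergic markers were listed to show tissue of the overlying cortex, where Bcl11b and Foxp1 are also made. Whether each, such as Slc17a6 (log2 difference -1.35), is particular to cortex was not tested. By the brightest probe they were negative in 8 of 8 with 0 called. The second Cux2 probe was positive, at 0.12 against -0.24. The listed markers summed to 8.86 to 18.3 in R6/2 and 14.2 to 19.7 in WT.

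Neuroblast markers were positive in 4 of 4, with sums of 3.49 to 4.41 in R6/2 and 2.80 to 2.95 in WT. Sox11 (log2 difference 0.64, adjusted p = 0.0104 by limma) and Dcx (0.60, adjusted p = 0.0489) were called higher, as were 0.468% of all tested genes. The second Dcx probe gave 0.37 and was not called (adjusted p = 0.291 by limma). The second Sox11 probe gave 0.50 (adjusted p = 0.0298 by limma). By the brightest probe, 0 markers of astrocytes, oligodendrocytes, microglia and endothelium were called, and the summed ranges of R6/2 and WT overlapped in each. Of 5 lymphocyte markers, 3 were tested and 0 called, at sums of 0.820 to 1.15 in R6/2 and 0.768 to 0.961 in WT, and 1 was well above background on 0 arrays. By any tested probe, 1 of 6 astrocyte markers was called higher, where 0.575% of all tested genes were. This was Gfap, a filament protein that rises in reactive astrocytes. Its dim probe A_55_P2157245 read 0.106, 0.132, 0.153 and 0.136 in R6/2, against 0.0375, 0.0620, 0.0754 and 0.0606 in WT. The genotypes did not overlap, and the log2 difference was 1.20 ± 0.21 (SE, n = 4 each; adjusted p = 0.0431 by limma). The other Gfap probes gave 2.33 (adjusted p = 0.0584) and, at the brightest, 0.34 (adjusted p = 0.168). The call of Gfap was lost without any 1 array other than WT replicate 1 or 3. The part of these cell types in the values of the transcription factors was not tested.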

How the data were processed

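Striatal RNA of 4 R6/2 and 4 WT samples was hybridised to 1-colour Agilent arrays. Per the file headers, the authors' deposited intensity values came from Agilent Feature Extraction 10.7.3.1, with probe positions on mm9. The deposited log2 values of the series table equal the log2 of the processed signal minus a constant per array (column medians -3.49 to -3.27; 75.0% of values below 0), as found from the values; the direction is R6/2 relative to WT. The authors' p-values and fold values there come from an unpaired t-test with Benjamini-Hochberg correction, per the file headers.

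The values used were log2 of the processed signal minus that of each array's 75th percentile (434 to 486), without outlier spots, with the spots of a probe averaged. A probe well above background on at least 4 of 8 arrays was tested (35121 probes, 16881 named genes) by limma 3.58.1 (lmFit, eBayes) under R 4.3.3, with Benjamini-Hochberg adjustment over all tested probes, and called at an adjusted p under 0.05. The procedure was tested on simulated data. Names came from accessions (26762 probes), gene numbers (5056) in the GRCm38.p6 gene table or scanner symbols (373), and 23490 probes had none. The members and lists were chosen with earlier results of these data known. Every member probe is reported; each other list names up to 4 called genes of smallest p, or, without calls, its 2 genes of smallest p, beside the 3 genes most like the member of smallest p. Same-numbered arrays deviated together in every pair (r = 0.222, 0.183, 0.356 and 0.133 over 35117 probes), and the arrays of each pair shared a slide column. A pairing of samples and an effect of slide column cannot be told apart, and the labels name no pairing. The main fit held no block for the replicate number, and the fit with that block is given among the alternatives. The number of arrays limits the precision.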

Additional observations from a re-analysis of the deposited data

Results flagged for a closer look

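A single array stood far from the others of its genotype in 3 of the 70 groups of 4 arrays checked, and chance flags about 1 in 20 groups. For Ebf1 (A_55_P2065513), WT replicate 3 was at -0.67 on the log2 scale and the other WT arrays between -0.16 and -0.08, a gap of 0.875 of the group's whole range. For Rxrg (A_55_P2044359), WT replicate 3 was at 3.60 and the other WT arrays between 3.93 and 3.99, a gap of 0.847 of the range. For Scn4b (A_66_P112495), R6/2 replicate 4 was at 4.67 and the other R6/2 arrays between 5.22 and 5.27, a gap of 0.918 of the range.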

How the results depend on the processing

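Over 17 alternatives for each of the 23 tested member probes, 376 values kept their sign and their side of the threshold, 13 changed sign, and 2 passed the threshold. Those 2 were Rarb A_55_P2084807 and Rxrg A_55_P2044359 with array weights, where 2 member probes were called; the count was 0 under every other alternative and without any 1 array. Over its alternatives, Rarb A_55_P2084807 lay between -0.54 and -0.39 (adjusted p 0.0368 to 0.168), Rxrg A_55_P2044359 between -0.52 and -0.35 (0.0404 to 0.250) and Foxp1 A_55_P2088825 between -0.37 and -0.22 (0.149 to 0.362). With array weights, the signs of both Zfp521 probes turned: A_51_P214985 gave -1.72e-04 and A_55_P1965459 gave -0.00505. With 1 array left out, the ranges that crossed 0 were -0.00761 to 0.0847 for Bcl11a A_55_P1958275, -0.130 to 0.0131 for Foxp2 A_55_P2113384, -0.0119 to 0.149 for Sp9, -0.343 to 0.0709 for Rarb A_55_P2099585, -0.0250 to 0.0737 for Zfp521 A_51_P214985 and -0.0645 to 0.116 for Zfp521 A_55_P1965459. The cause of these changes was not tested.

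The replicate block gave 283 called probes on the whole array against 529, 1 retinoid gene against 2, 0 other regulators against 1 and 8 effectors against 17; it changed no call among the members and their family relatives. Normexp gave 981 array probes, 1 family relative against 0, and 3 other regulators. The array count was 110 with no filter on dim probes, 264 with the methods' t-test and 1114 with array weights. Leaving out 1 array gave 100 to 505 array probes, 1 to 2 retinoid genes, 0 other regulators and 3 to 14 effectors. Quantile normalization gave 372 lower and 206 higher, against 400 lower and 129 higher. Counting a gene by any tested probe, chosen after seeing the data, gave 2 other regulators (1 lower, 1 higher), 3 retinoid genes, 17 effectors and 0 family relatives. Slide and scan were not run as a block, since there was 1 of each. For the dimmest tested probes of Foxp2, Ikzf1, Zfp521 and Rarb, low signal limits what can be read, although each was well above background on all 8 arrays. The Sp9 probe was brighter than these and was also well above background on all 8.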
